A study of Mus musculus with 16 samples.

Results

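The matrix metalloproteases (Mmp), the Adamts proteases and the tissue inhibitors of metalloproteases (Timp) were followed in glomerular extracts of mice with nephritis. Genes were taken by symbol from array probesets annotated to exactly 1 gene. These were Mmp followed by a digit, Adamts, and Timp1 to Timp4. This gave 49 of the 30142 genes in the table, 22 Mmp genes, 18 Adamts proteases, 5 Adamts-like genes (Adamtsl) and 4 Timp genes, and each had 1 probeset. The knockout group (KO) is labelled B6.ER⍺KO and lacks oestrogen receptor alpha, encoded by Esr1, and the wild type group (WT) is C57Bl/6. The deletion that the KO mice carry is not given in the sources used here. All 16 mice were female, and each genotype was taken untreated and 18 hours, 6 days and 2 weeks after an intraperitoneal dose of 8 ul/g of sheep nephrotoxic serum. This serum holds antibodies to the glomerular basement membrane, which start an immune nephritis. Each of the 8 groups held 2 mice with 1 array each, and the labels name no control serum.

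Mmp proteins are secreted or membrane-bound zinc endopeptidases that cut collagens, laminins, proteoglycans and many signalling proteins, and most are made as inactive precursors. Adamts proteases carry thrombospondin repeats that hold them in the matrix, and several cut the large proteoglycans aggrecan and versican. Adamtsl proteins share those repeats but lack the protease domain. Timp proteins bind the active site of these enzymes and block it. In the glomerulus they act on a basement membrane of collagen IV and laminin and on the mesangial matrix.

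Values are deposited log2 units, and 152 genes had means above the log2 of a full 16-bit scanner scale, so a unit is not a known fold of RNA. Of the 49 genes, 33 had a mean under the median of all genes. Levels are not compared between genes, since each has its own probes. The genes were fitted together with all others in limma, and a gene was called at a Benjamini-Hochberg adjusted p under 0.05 over all 30142 genes. Shares of all genes called refer to this threshold. Counts of the 49 at an unadjusted p under 0.05 are given without the matching share of all genes, so no excess is read from them. Errors of differences are standard errors that draw on the spread within all 8 groups.

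Several arrays stood apart. The array of WT 2 weeks replicate 2 held 34485 distinct values among its 72688 probesets, against 66667 to 67028 in the other arrays. Its median was 5.90, the other medians being 5.57 to 5.75, and its 23 background probesets had a median of 3.70, with 3.47 to 3.54 elsewhere. Of the 49 genes, 30 had their highest value there, and so did 30.9% of all genes. Among the 33 dim genes this was 26. The matching share of all dim genes is not given, so no excess is read from this count. KO 2 weeks replicate 1 had the tubule injury marker Havcr1 at 7.17, against 12.77 in replicate 2. Between these arrays 10 of the 49 genes differed by more than 1 unit, as did 9.40% of all genes. The 18-hour replicate 2 arrays resembled the other genotype, with Abcc3 at 12.93 in KO and 6.25 in WT, where the replicate 1 arrays had 6.50 and 13.09. Esr1 itself was 7.11 to 7.64 in KO and 6.35 to 7.53 in WT, so it was not lower in KO mice. All labels were kept. Calls are also given without WT 2 weeks replicate 2 (15 arrays), without both 18-hour replicate 2 arrays (14 arrays) and without these and KO 2 weeks replicate 1 (13 arrays).

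The clearest change was in WT mice at 2 weeks. Limma called 13 of the 49 genes against untreated WT mice, 12 higher and 1 lower, where 8.04% of all genes were called (4.81% higher and 3.23% lower). Those higher were the gelatinase Mmp2, the stromelysins Mmp3 and Mmp10, the matrilysin Mmp7, the macrophage elastase Mmp12, the inhibitor Timp1, Adamts1, Adamts3, Adamts4, Adamts12, Adamts16 and Adamtsl4. The inhibitor Timp3 was lower. Of the genes called higher, Mmp3, Mmp7, Mmp10, Mmp12, Timp1, Adamts3, Adamts4 and Adamts12 are among the dim genes. The median difference of the 49 genes was 0.32, against 0.13 over all genes. Quantile normalization moved these medians to 0.14 and 0.00, called 7 of the 49 genes, where 4.03% of all genes were called, and turned the sign of 10 of the 49 differences. It also changed the share of higher genes among all called genes to 51.3%, against 59.8% as deposited.

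This count rested on few arrays. Without WT 2 weeks replicate 2, limma called Adamts4 and Timp1 alone, where 0.766% of all genes were called, and the medians were 0.18 for the 49 genes and 0.06 for all. Without WT 2 weeks replicate 1 it called 23 of the 49, where 24.7% of all genes were called. The 12 that joined were Mmp1b, Mmp9, Mmp17, Mmp19, Mmp21, Mmp24, Mmp25, Mmp27, Adamts7, Adamts17, Adamts18 and Adamts20, each with its highest value in replicate 2. Leaving out untreated WT replicate 1 or 2 left 0 calls, where 0.106% and 0% of all genes were called, and leaving out either untreated KO array left 7, where 3.95% were. The 14 arrays gave 4 calls, Adamts3, Adamts4 and Timp1 higher and Timp3 lower, where 2.85% of all genes were called (1.61% higher), and the 13 arrays gave 16, where 12.9% were. With 1 array of a group left out, the remaining array is assumed to vary like the other groups.

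**Figure D1:**
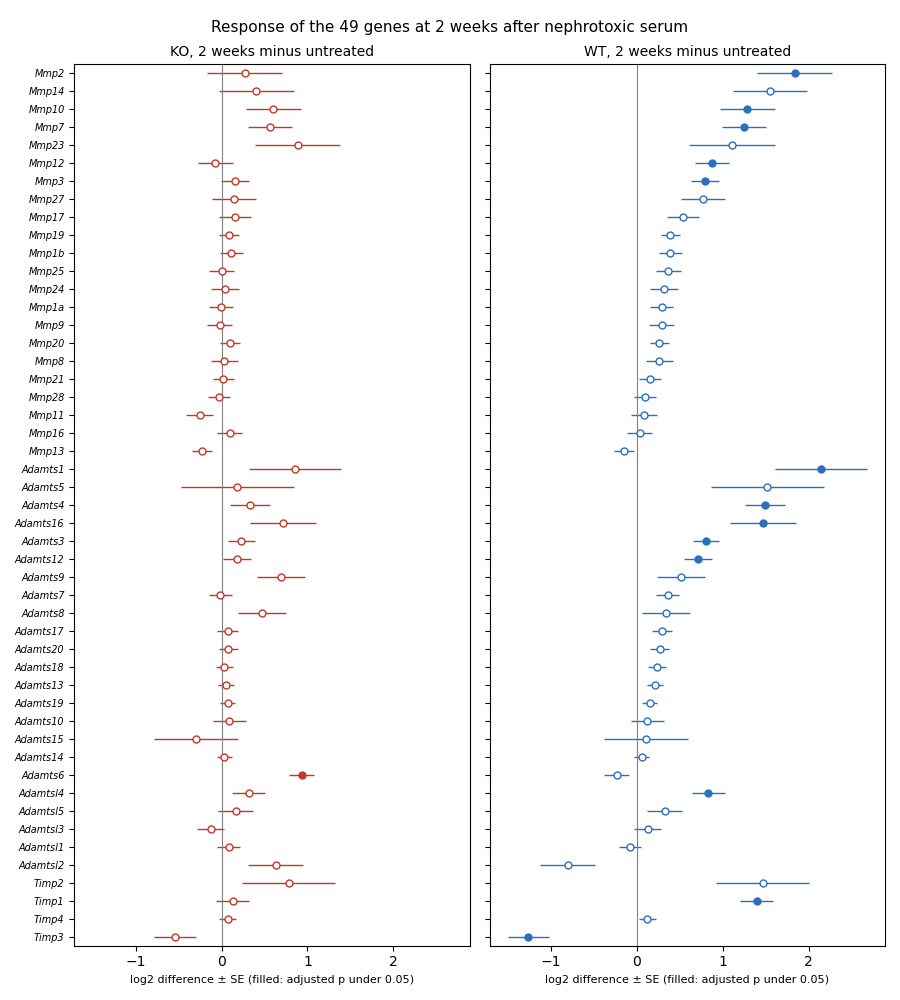
Difference between 2 weeks after serum and untreated for each of the 49 genes, in deposited log2 units with standard errors, KO mice on the left and WT mice on the right; filled points passed limma at an adjusted p under 0.05. The WT panel holds 13 filled points, from Adamts1 at 2.15 to Timp3 at -1.27, and the KO panel holds 1, Adamts6 at 0.94.

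The inhibitors moved apart from each other. Timp1, a soluble inhibitor of most Mmp enzymes, rose in WT mice at 2 weeks by 1.40 ± 0.19 (SE; limma adjusted p = 0.00866), and by 1.14 ± 0.20 without WT 2 weeks replicate 2 (adjusted p = 0.0387, in a range of 0.00131 to 0.0754 over the alternatives). In KO mice Timp1 stood at 4.43 and 4.40 untreated, 4.46 and 4.43 at 18 hours, 4.86 and 4.64 at 6 days, and 4.29 and 4.80 at 2 weeks. WT mice had 4.16 and 4.40 untreated, 4.28 and 4.33 at 18 hours, 4.60 and 4.86 at 6 days, and 5.42 and 5.94 at 2 weeks. Both WT arrays at 2 weeks lay above all other arrays, while the KO arrays at 2 weeks lay within the range of the untreated, 18-hour and 6-day arrays. The KO difference at 2 weeks was 0.13 ± 0.19 (adjusted p = 0.908). Between genotypes at 2 weeks Timp1 was -1.13 ± 0.19 (KO minus WT, adjusted p = 0.0501), just outside the threshold, and the difference of the responses was -1.27 ± 0.27 (adjusted p = 0.557).

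Timp3, which binds to the matrix and also inhibits Adamts aggrecanases and the sheddase Adam17, fell in WT mice at 2 weeks by 1.27 on the log2 scale (SE 0.24; limma adjusted p = 0.0194). KO mice had 14.83 and 15.15 untreated, 15.01 and 14.80 at 18 hours, 15.24 and 15.005 at 6 days, and 14.75 and 14.15 at 2 weeks. The WT values were 14.99 and 15.16 untreated, 14.77 and 15.05 at 18 hours, 14.67 and 14.76 at 6 days, and 13.82 and 13.80 at 2 weeks. The WT arrays at 2 weeks were nearly equal and were the lowest of the 16, with KO 2 weeks replicate 2 next. The difference was as large without WT 2 weeks replicate 2 (-1.26 ± 0.29) but did not pass (adjusted p = 0.0743), and it was -0.78 after quantile normalization (adjusted p = 0.0532), within a range of 0.00342 to 0.130 over the alternatives. In KO mice at 2 weeks it was -0.55 ± 0.24 (adjusted p = 0.598).

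Timp2, an inhibitor that also takes part in the activation of pro-Mmp2 by Mmp14, had its higher values from 6 days on, and no contrast passed over 16 arrays. KO mice had 8.56 and 8.70 untreated, 8.68 and 8.92 at 18 hours, 10.06 and 10.72 at 6 days, and 8.38 and 10.43 at 2 weeks. In WT mice the values were 9.18 and 8.87 untreated, 9.34 and 8.55 at 18 hours, 10.55 and 10.97 at 6 days, and 10.11 and 10.87 at 2 weeks. All 4 arrays at 6 days lay above all untreated and 18-hour arrays, and KO 2 weeks replicate 1 lay below the untreated KO arrays. At 6 days the difference was 1.76 ± 0.54 in KO mice and 1.74 ± 0.54 in WT mice (limma adjusted p = 0.390 and 0.497). At 2 weeks it was 0.78 ± 0.54 in KO mice and 1.47 ± 0.54 in WT mice. Over the 13 arrays, with KO 2 weeks left as replicate 2 alone, the KO difference at 2 weeks was 1.81 ± 0.37 (adjusted p = 0.0364).

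Timp4, an inhibitor best known from heart muscle, changed little. Its arrays were 5.38 and 5.33 untreated, 5.30 and 5.29 at 18 hours, 5.29 and 5.24 at 6 days, and 5.52 and 5.33 at 2 weeks in KO mice. They were 5.17 and 5.22 untreated, 5.27 and 5.33 at 18 hours, 5.23 and 5.15 at 6 days, and 5.43 and 5.21 at 2 weeks in WT mice. The full range over the 16 arrays was 5.15 to 5.52, and no contrast was called.

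**Figure D2:**
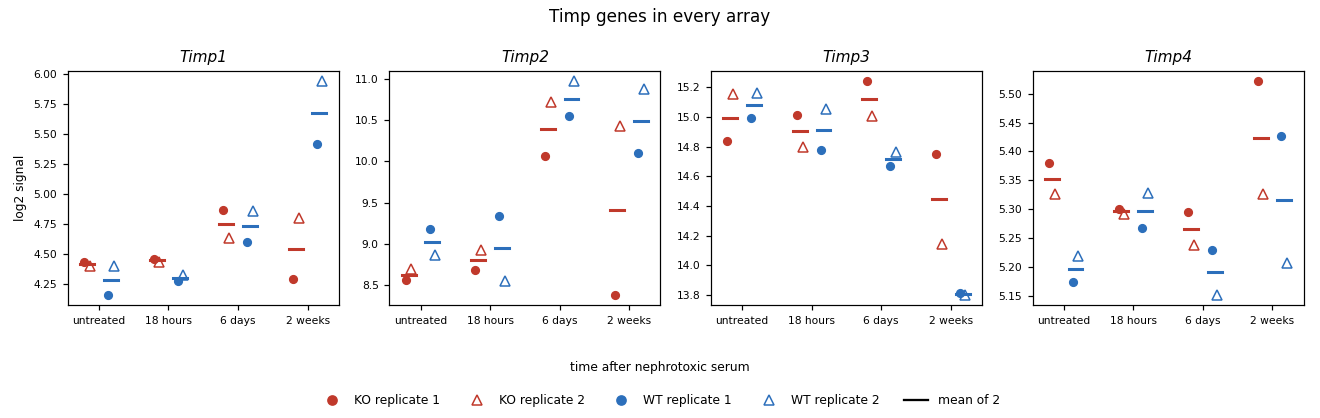
Deposited log2 values of Timp1, Timp2, Timp3 and Timp4 by time after serum, with KO (red) left of WT (blue) at each time; circles are replicate 1, triangles replicate 2, and bars the mean of 2 arrays. Timp1 reached 5.42 and 5.94 in WT mice at 2 weeks and 4.29 and 4.80 in KO mice, while Timp3 had its lowest values, 13.82 and 13.80, in WT mice at 2 weeks.

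Among proteases of basement membrane and denatured collagen, Mmp2, the gelatinase that cuts collagen IV, rose in WT mice at 2 weeks by 1.84 ± 0.44 (SE; limma adjusted p = 0.0328). KO mice had 6.01 and 6.21 untreated, 5.89 and 6.17 at 18 hours, 6.55 and 7.44 at 6 days, and 5.57 and 7.18 at 2 weeks. The WT values were 6.26 and 6.49 untreated, 6.12 and 5.95 at 18 hours, 7.47 and 7.34 at 6 days, and 7.87 and 8.56 at 2 weeks. At 6 days all arrays of both genotypes already lay above all untreated and 18-hour arrays, though neither difference passed (0.88 ± 0.44 in KO mice and 1.03 ± 0.44 in WT mice). KO 2 weeks replicate 1, at 5.57, was the lowest array for this gene. The WT difference without WT 2 weeks replicate 2 was 1.50 ± 0.54 (adjusted p = 0.165, the highest of the alternatives, whose lowest was 0.00304).

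Mmp14, a membrane-bound protease that activates pro-Mmp2, followed a similar course without a call over 16 arrays. It was 6.54 and 8.26 in KO mice at 2 weeks, against 6.98 and 7.01 in untreated KO mice. In WT mice it was 9.09 and 8.68 at 2 weeks, against 7.31 and 7.36 untreated, a difference of 1.55 ± 0.44 (limma adjusted p = 0.0523). WT groups did not overlap, while the KO arrays at 2 weeks lay on either side of the untreated ones. Mmp23, a membrane-anchored member with an unusual structure, was 7.99 and 8.51 in KO mice and 9.27 and 9.17 in WT mice at 6 days, where the untreated arrays had 6.96 and 7.33 in KO mice and 8.25 and 7.15 in WT mice, and it was called nowhere. Mmp9, the other gelatinase, ranged from 4.27 to 4.89 over all arrays, with the highest value in WT 2 weeks replicate 2 and no call over 16 arrays.

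Of the Adamts proteases that cut aggrecan and versican, Adamts1 had the largest WT difference at 2 weeks among the called genes, 2.15 ± 0.54 (SE; limma adjusted p = 0.0376). Its KO arrays were 9.41 and 9.31 untreated, 9.53 and 10.70 at 18 hours, 11.49 and 12.29 at 6 days, and 9.40 and 11.02 at 2 weeks. Its WT arrays were 9.90 and 9.54 untreated, 10.10 and 9.80 at 18 hours, 11.46 and 12.26 at 6 days, and 12.23 and 11.51 at 2 weeks. The 6-day arrays of both genotypes nearly coincide, at 11.46 to 12.29, above every untreated and 18-hour array. The differences at 6 days were 2.53 ± 0.54 in KO mice (adjusted p = 0.213; 0.0485 over the 13 arrays) and 2.14 ± 0.54 in WT mice (adjusted p = 0.396). At 2 weeks the KO arrays split, replicate 1 at the untreated level and replicate 2 above it. Without WT 2 weeks replicate 2 the WT difference at 2 weeks was 2.51 ± 0.67 and did not pass (adjusted p = 0.0930, in a range of 0.00854 to 0.185).

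Adamts4, a second aggrecanase, rose in WT mice at 2 weeks by 1.50 ± 0.24 (SE; limma adjusted p = 0.0118). The call remained without WT 2 weeks replicate 2, at 1.75 ± 0.27 (adjusted p = 0.0261), and was lost only without either untreated WT array among the alternatives tried (highest adjusted p 0.0885). In KO mice it was 5.42 and 5.15 untreated, 5.47 and 5.42 at 18 hours, 5.94 and 6.16 at 6 days, and 5.28 and 5.95 at 2 weeks. In WT mice it was 5.002 and 5.17 untreated, 5.23 and 5.38 at 18 hours, 5.69 and 6.17 at 6 days, and 6.83 and 6.33 at 2 weeks. The WT arrays at 2 weeks were the highest of the 16, and the arrays at 6 days came above the untreated ones in both genotypes (0.76 ± 0.24 in KO mice and 0.84 ± 0.24 in WT mice, neither called). The KO difference at 2 weeks was 0.33 ± 0.24 (adjusted p = 0.739), and the difference of the responses at 2 weeks was -1.17 ± 0.33 (adjusted p = 0.639).

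Adamts5, the third aggrecanase of this family, was 7.57 and 10.01 in KO mice and 10.76 and 11.56 in WT mice at 2 weeks, and untreated 8.50 and 8.72 in KO mice and 10.02 and 9.26 in WT mice. The WT difference at 2 weeks was 1.52 ± 0.66 (limma adjusted p = 0.147), and KO minus WT at 2 weeks was -2.37 ± 0.66 (adjusted p = 0.134). KO replicates at 2 weeks differed by more than 2 units, the widest gap among these genes with that of Timp2. Adamts9, which also cuts versican, was 8.67 and 9.77 in KO mice and 9.17 and 9.19 in WT mice at 2 weeks, with 8.51 to 8.73 in the untreated arrays, and was not called over 16 arrays. Over the 13 arrays it was called in KO mice at 2 weeks (1.24), and without KO 2 weeks replicate 2 in WT mice at 2 weeks.

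**Figure D3:**
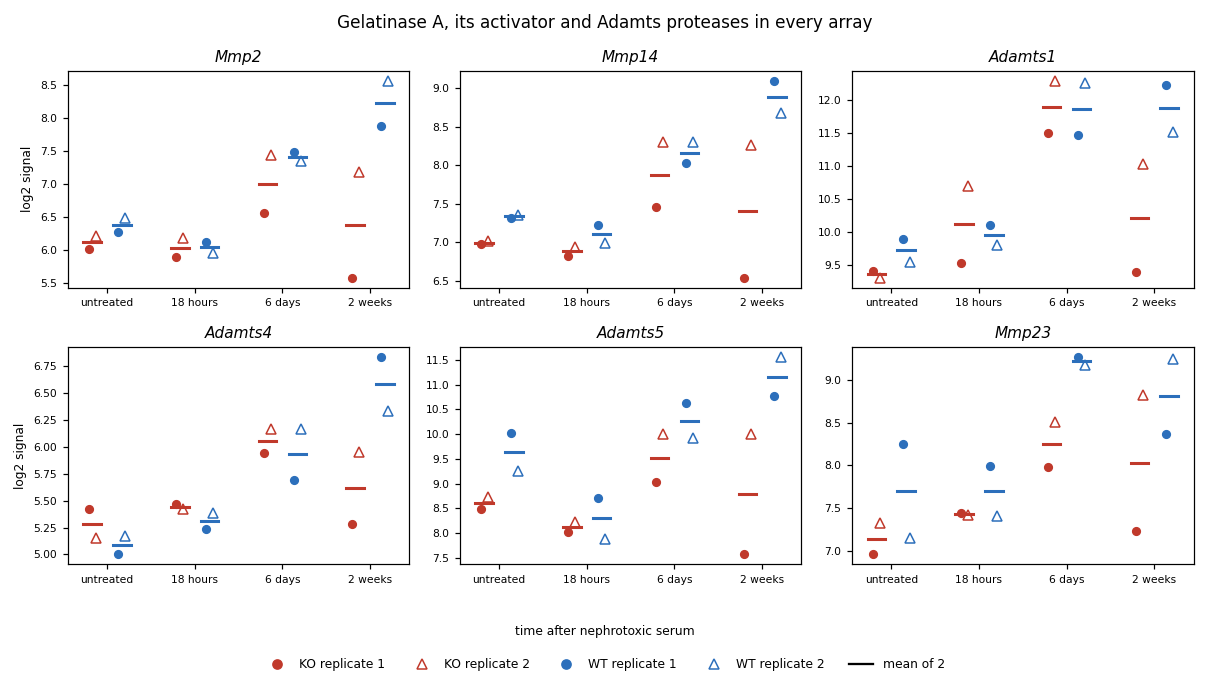
Deposited log2 values of Mmp2, Mmp14, Adamts1, Adamts4, Adamts5 and Mmp23 by time after serum, with KO (red) left of WT (blue) at each time; circles are replicate 1, triangles replicate 2, and bars the mean of 2 arrays. Adamts1 stood at 11.46 to 12.29 in the 4 arrays at 6 days, and the KO replicates at 2 weeks were far apart (9.40 and 11.02 for Adamts1, 5.57 and 7.18 for Mmp2).

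Of the 22 Mmp genes, 10 lie on chromosome 9: Mmp1a, Mmp1b, Mmp3, Mmp7, Mmp8, Mmp10, Mmp12, Mmp13, Mmp20 and Mmp27. They include the collagenases, the stromelysins and matrilysin, and induction of several of them through AP-1, the dimer of Fos and Jun proteins, is textbook knowledge. AP-1 binds the palindrome TGANTCA, which reads the same on both strands, so 1 search covers both. Promoter windows from 250 bases before to 50 bases after the start (RefSeq, GRCm38.p6) matched 34 of the 49 genes, all 10 of these among them. The letters TGANTCA stood in 8 of the 10 (not in Mmp8 or Mmp27) and in 0 of the other 24, where 7.81% of the 32851 windows in the table held them. All 4 of the chromosome 9 genes called in WT mice at 2 weeks held the form TGAGTCA, but so did Mmp1a and Mmp1b, which were not called. Mmp13, also not called, held TGACTCA, the same form read on the other strand. The form therefore did not separate called from uncalled genes. The palindromic oestrogen response element, GGTCA and TGACC with 3 bases between them, stood in 0 of the 34 and in 0.07% of all windows. A match describes letters and is not a binding site, and the lack of one covers only these windows. The 8 matching stretches, with 20 bases on each side, are shown to let the spacing and the flanks be compared, with the motif in capitals and each read along its gene.
Mmp3: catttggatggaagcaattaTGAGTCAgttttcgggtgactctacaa
Mmp10: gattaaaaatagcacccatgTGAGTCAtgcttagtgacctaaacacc
Mmp7: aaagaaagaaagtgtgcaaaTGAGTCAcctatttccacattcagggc
Mmp12: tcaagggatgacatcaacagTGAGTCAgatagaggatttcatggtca
Mmp13: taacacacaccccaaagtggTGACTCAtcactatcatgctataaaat
Mmp1a: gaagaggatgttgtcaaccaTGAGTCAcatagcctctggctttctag
Mmp1b: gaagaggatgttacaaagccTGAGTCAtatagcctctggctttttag
Mmp20: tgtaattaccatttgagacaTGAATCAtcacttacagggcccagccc

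In GRCm38.p6 these lie at chr9:7445756-7445802 for Mmp3, chr9:7502259-7502305 for Mmp10, chr9:7692007-7692053 for Mmp7, chr9:7347310-7347356 for Mmp12, chr9:7272459-7272505 for Mmp13, chr9:7464048-7464094 for Mmp1a and chr9:7628116-7628162 for Mmp20, all on the plus strand. The Mmp1b stretch lies at chr9:7388093-7388139 on the minus strand. The motif began 46 bases before the start in Mmp3, 63 in both Mmp7 and Mmp10, 44 in Mmp12 (at the second of its 2 listed starts) and 35 in Mmp13. It began 73 bases before the start in Mmp1a, 93 in Mmp1b and 95 in Mmp20. The stretches of Mmp1a and Mmp1b, close relatives on the same chromosome, were identical at 40 of 47 bases. The whole Mmp10 window, at chr9:7502092-7502391 on the plus strand, is given because this gene had the largest difference of the 4 called:
Mmp10 promoter: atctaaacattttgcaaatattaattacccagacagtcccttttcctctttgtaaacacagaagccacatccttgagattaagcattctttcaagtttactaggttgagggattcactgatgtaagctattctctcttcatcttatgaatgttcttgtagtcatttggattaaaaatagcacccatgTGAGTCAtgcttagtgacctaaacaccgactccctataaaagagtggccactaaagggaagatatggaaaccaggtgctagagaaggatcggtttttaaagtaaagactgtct

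Mmp10, the second stromelysin, which also activates other pro-Mmp enzymes, rose in WT mice at 2 weeks by 1.29 ± 0.32 (SE; limma adjusted p = 0.0382). KO mice had 4.998 and 4.92 untreated, 4.98 and 4.90 at 18 hours, 5.08 and 5.62 at 6 days, and 4.89 and 6.24 at 2 weeks. WT mice had 4.76 and 4.77 untreated, 4.73 and 4.94 at 18 hours, 5.11 and 5.06 at 6 days, and 6.04 and 6.07 at 2 weeks. The WT arrays at 2 weeks agreed closely and lay above every array but KO 2 weeks replicate 2, which was the highest of the 16. KO minus WT at 2 weeks was -0.49 ± 0.32 over 16 arrays and 0.18 ± 0.20 over the 13 arrays, so its direction turned with KO 2 weeks replicate 1. With WT 2 weeks replicate 2 left out, the WT difference was 1.27 ± 0.42 (adjusted p = 0.140, in a range of 0.00134 to 0.167).

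Mmp7, matrilysin, which tubule epithelium is known to make after injury, rose in WT mice at 2 weeks by 1.25 ± 0.26 (SE; limma adjusted p = 0.0236). In KO mice the arrays were 4.35 and 4.09 untreated, 4.21 and 4.52 at 18 hours, 4.32 and 4.47 at 6 days, and 4.32 and 5.25 at 2 weeks. In WT mice they were 4.11 and 4.31 untreated, 4.30 and 4.27 at 18 hours, 4.32 and 4.38 at 6 days, and 5.20 and 5.71 at 2 weeks. Only the arrays of WT mice at 2 weeks and KO 2 weeks replicate 2 exceeded 5. Its WT difference without WT 2 weeks replicate 2 was 0.99 ± 0.30 (adjusted p = 0.120, in a range of 0.00215 to 0.132). Over the 13 arrays both Mmp7 (1.03 ± 0.22, adjusted p = 0.0389) and Mmp10 (1.28 ± 0.20, adjusted p = 0.0206) were called higher in KO mice at 2 weeks, with replicate 2 as the lone KO array.

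Mmp12, the elastase of macrophages, rose in WT mice at 2 weeks by 0.88 ± 0.20 (SE; limma adjusted p = 0.0309), and without WT 2 weeks replicate 2 by a point value of 0.54 ± 0.18 that did not pass (adjusted p = 0.140, in a range of 0.00255 to 0.154). The KO arrays were 5.37 and 5.24 untreated, 5.54 and 5.16 at 18 hours, 5.44 and 5.27 at 6 days, and 5.40 and 5.08 at 2 weeks. The WT arrays were 5.06 and 5.21 untreated, 5.19 and 5.25 at 18 hours, 5.27 and 5.14 at 6 days, and 5.67 and 6.35 at 2 weeks. KO 2 weeks replicate 2 was among the lowest of the 16 here, unlike for Mmp7 and Mmp10.

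Mmp3, the first stromelysin, rose in WT mice at 2 weeks by 0.79 ± 0.16 (SE; limma adjusted p = 0.0234), with 0.47 ± 0.10 and no call without WT 2 weeks replicate 2 (adjusted p = 0.0655, in a range of 0.000646 to 0.152). In KO mice it stood at 4.56 and 4.48 untreated, 4.59 and 4.52 at 18 hours, 4.78 and 4.74 at 6 days, and 4.74 and 4.59 at 2 weeks. In WT mice it stood at 4.43 and 4.40 untreated, 4.57 and 4.51 at 18 hours, 4.72 and 4.55 at 6 days, and 4.89 and 5.53 at 2 weeks. Both WT arrays at 2 weeks lay above all others, replicate 2 by the wider margin.

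The other 6 genes of the chromosome 9 group were not called in any contrast over 16 arrays. Mmp13, the main rodent interstitial collagenase, was 4.78 and 4.62 in KO mice and 4.59 and 4.70 in WT mice at 2 weeks, with 4.72 to 4.98 in the untreated arrays. Mmp8, the collagenase of neutrophils, was 4.72 and 4.58 in KO mice and 4.50 and 4.94 in WT mice at 2 weeks, and the untreated arrays had 4.41 to 4.73. Mmp27 had 5.86 in WT 2 weeks replicate 2 and 4.78 in replicate 1, while its other arrays lay at 4.40 to 4.73. Mmp1a (4.01 to 4.45), Mmp1b (3.87 to 4.43) and Mmp20, the enamel protease (4.59 to 4.98), had narrow ranges over the 16 arrays.

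**Figure D4:**
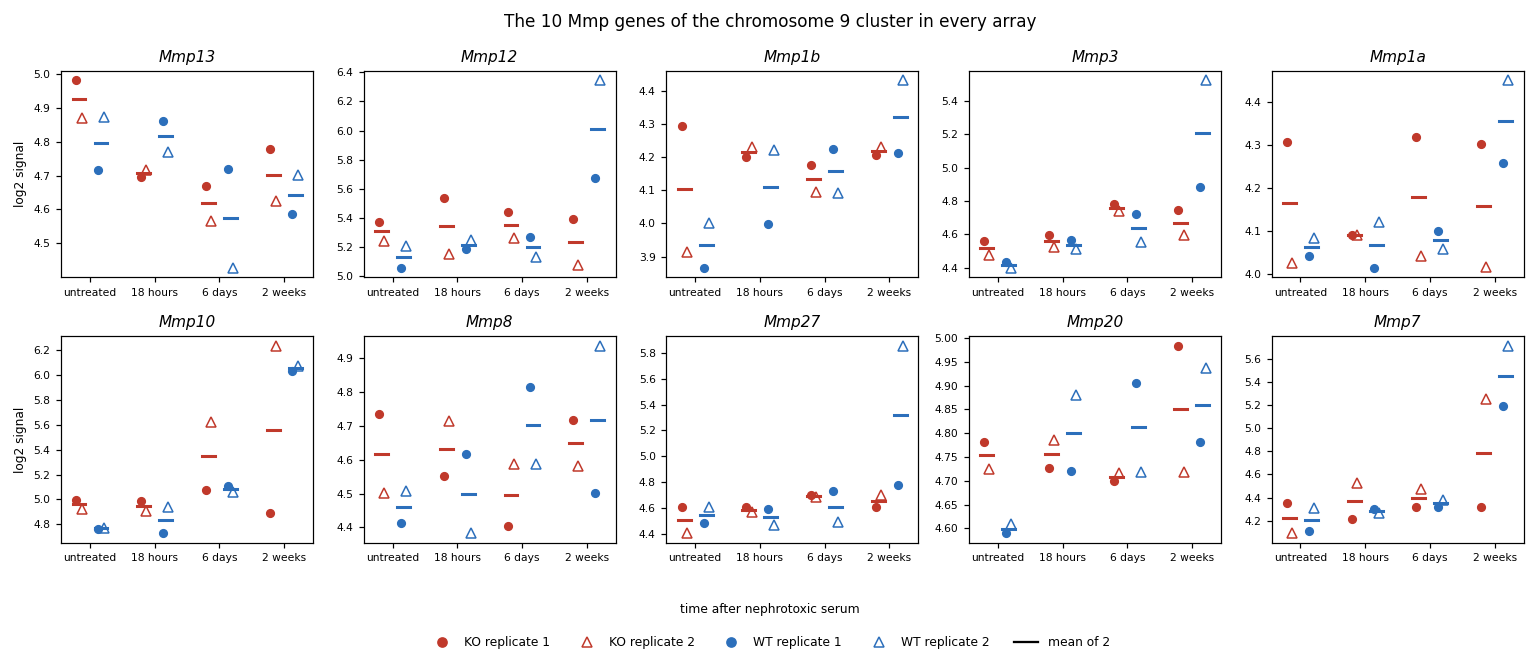
Deposited log2 values of the 10 Mmp genes on chromosome 9 by time after serum, with KO (red) left of WT (blue) at each time; circles are replicate 1, triangles replicate 2, and bars the mean of 2 arrays. Mmp7 and Mmp10 were high in both WT arrays and in KO replicate 2 at 2 weeks, whereas Mmp27 was high in WT replicate 2 alone (5.86).

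The remaining calls in WT mice at 2 weeks were of Adamts and Adamtsl genes. Adamts16, a protease linked to kidney development and blood pressure in rodents, rose by 1.47 ± 0.38 (SE; limma adjusted p = 0.0434). KO mice had 6.45 and 6.23 untreated, 6.38 and 6.57 at 18 hours, 6.51 and 6.45 at 6 days, and 6.37 and 7.74 at 2 weeks. WT mice had 6.96 and 6.89 untreated, 6.85 and 6.44 at 18 hours, 7.01 and 6.96 at 6 days, and 8.89 and 7.90 at 2 weeks. The WT arrays at 2 weeks and KO 2 weeks replicate 2 lay above 7.7, and every other array lay at 7.01 or below. This call was the least stable, being lost in 19 of 25 alternatives, and without WT 2 weeks replicate 2 the difference was 1.96 ± 0.42 (adjusted p = 0.0645, in a range of 0.00568 to 0.184).

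Adamts3, which removes the amino-terminal propeptide of procollagen and processes the lymphatic growth factor Vegfc, rose by 0.81 ± 0.15 (SE; limma adjusted p = 0.0186), and stood at 0.80 ± 0.19 without WT 2 weeks replicate 2 (adjusted p = 0.0764, in a range of 0.00250 to 0.111). The KO arrays were 4.94 and 4.69 untreated, 4.75 and 5.0 at 18 hours, 4.79 and 4.91 at 6 days, and 4.80 and 5.29 at 2 weeks. The WT arrays were 4.89 and 4.93 untreated, 4.83 and 4.71 at 18 hours, 4.90 and 4.93 at 6 days, and 5.71 and 5.72 at 2 weeks. The WT replicates at 2 weeks agreed closely and were above all other arrays. Adamtsl4, which binds fibrillin, rose by 0.83 ± 0.19 (adjusted p = 0.0311), and was 0.63 ± 0.22 without WT 2 weeks replicate 2 (adjusted p = 0.155, in a range of 0.00331 to 0.155). KO mice had 6.94 and 6.79 untreated, 6.97 and 6.97 at 18 hours, 7.05 and 7.19 at 6 days, and 6.85 and 7.52 at 2 weeks for Adamtsl4. WT mice had 6.90 and 6.88 untreated, 6.85 and 6.85 at 18 hours, 7.22 and 7.23 at 6 days, and 7.52 and 7.92 at 2 weeks for it. KO 2 weeks replicate 2, at 7.52, equalled WT 2 weeks replicate 1. Adamts12, which cuts cartilage oligomeric matrix protein, was the last of the 13, at 0.71 ± 0.16 (adjusted p = 0.0298), with 6.38 and 6.70 in WT mice at 2 weeks and 5.75 and 5.91 untreated.

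In KO mice at 2 weeks limma called 1 of the 49 genes, Adamts6, where 0.109% of all genes were called, and 3 of the 49 had an unadjusted p under 0.05. The count changed with KO 2 weeks replicate 1. Over the 13 arrays it was 6 (Mmp7, Mmp10, Timp2, Adamts6, Adamts9 and Adamts16), where 4.35% of all genes were called, and without KO 2 weeks replicate 1 from the 16 arrays it was 8, where 5.3% were. For Mmp2, Mmp14, Timp2, Adamts1, Adamts4, Adamts5 and Adamts16 the value of KO 2 weeks replicate 1 lay near the untreated KO arrays or below them, while replicate 2 lay above them.

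Adamts6, a protease that acts on the microfibril network, was the only one of the 49 called between genotypes in the fit of 16 arrays. At 2 weeks it was higher in KO than in WT mice by 0.99 ± 0.15 (SE; limma adjusted p = 0.0357), where 0.182% of all genes were called (0.0365% higher in KO). It had also risen by 0.94 ± 0.15 in KO mice at 2 weeks over untreated KO mice (adjusted p = 0.0440). The KO arrays were 8.21 and 8.20 untreated, 9.03 and 8.96 at 18 hours, 8.47 and 8.59 at 6 days, and 9.04 and 9.25 at 2 weeks. The WT arrays were 8.54 and 8.25 untreated, 9.01 and 8.81 at 18 hours, 8.36 and 8.12 at 6 days, and 8.16 and 8.16 at 2 weeks. All 4 arrays at 18 hours were high, at 8.81 to 9.03, but at 2 weeks only the KO arrays were, including replicate 1, and the WT arrays were both at 8.16. KO minus untreated was 0.79 ± 0.15 at 18 hours, and WT minus untreated was 0.52 ± 0.15, neither called (adjusted p = 1 for both). The difference of the responses at 2 weeks was 1.17 ± 0.21 (adjusted p = 0.431, in a range of 0.0259 to 0.961).

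Many alternatives ended the calls of Adamts6. Most of them, such as array weights or leaving out an array of another group, cannot move a difference of 2 group means. A steady size under these is therefore no support. The ends of both ranges below come from leaving out 1 array of the groups compared. Over the 25 alternatives the KO minus WT difference at 2 weeks stayed between 0.88 and 1.09, with adjusted p from 0.00732 to 0.854, and 18 of them ended the call. It was 0.99 ± 0.18 without WT 2 weeks replicate 2 (adjusted p = 0.131). The KO difference over untreated stayed between 0.83 and 1.04, and 19 of 25 ended the call, with adjusted p up to 0.833. Over the 14 and the 13 arrays the genotype difference at 2 weeks was not called (adjusted p = 0.0808 and 0.176), whereas the KO rise was called over the 13 arrays (1.04 ± 0.18, adjusted p = 0.0239) and not over the 14 (adjusted p = 0.148). Among all called genes in KO minus WT at 2 weeks the share higher in KO was 20% as deposited and 35.3% after quantile normalization, and Adamts6 was called in both.

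Like Adamts6, Adamts15 (1.40) and Timp3 (0.64) had KO arrays wholly above the WT arrays at 2 weeks, without a call. The share of all genes in that direction is not given. KO arrays lay wholly below the WT arrays at 2 weeks in 21 of the 49 genes, where 22.8% of all genes did so. The median KO minus WT difference of the 49 was -0.30, against -0.06 over all genes. These medians were -0.08 and 0.01 without WT 2 weeks replicate 2. Mmp2 (-1.84 ± 0.44), Adamts1 (-1.66 ± 0.54) and Adamts4 (-0.97 ± 0.24) did not pass (limma adjusted p from 0.108 to 0.162). Without KO 2 weeks replicate 2 the count of calls was 19, where 17.7% of all genes were called, and without WT 2 weeks replicate 1 it was 18, where 14.9% were. Both of these set a single array against the other genotype.

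At 18 hours and 6 days limma called 0 of the 49 genes in either genotype. At 18 hours 0% of all genes were called in both genotypes, and unadjusted p-values under 0.05 numbered 2 of 49 in KO mice and 3 of 49 in WT mice. At 6 days 0.0133% of all genes were called in KO mice and 0% in WT mice, and 7 of the 49 had an unadjusted p under 0.05 in each genotype. At 6 days the smallest p-values belonged in both genotypes to Adamts1, Adamts4 and Timp2, whose values are given above. After Adamts6, the smallest at 18 hours in KO mice were Adamts15 (-1.16 ± 0.49) and Mmp13 (-0.22 ± 0.12), and in WT mice Adamts10 (-0.63 ± 0.19) and Adamtsl1 (-0.37 ± 0.13), with adjusted p = 1 for each. Differences between the responses of the genotypes were called for 0 of the 49 genes and 0% of all genes at each time. Under an unadjusted p of 0.05 were 1 of the 49 at 18 hours, 1 at 6 days and 9 at 2 weeks. Besides the genes given for 2 weeks above, the smallest p-values of these differences were those of Adamts15 (-2.01 ± 0.69), Adamts10 (0.55 ± 0.27) and Adamtsl2 (0.79 ± 0.45) at 18 hours and of Adamts6 (0.48 ± 0.21), Mmp20 (-0.26 ± 0.16) and Mmp8 (-0.36 ± 0.22) at 6 days. The difference at 18 hours rests on arrays that resembled the other genotype.

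Between untreated KO and WT mice 0 of the 49 genes and 0% of all genes were called, and 3 of the 49 had an unadjusted p under 0.05. Adamts15, another versican-cutting protease, was highest relative to its error. It stood at 8.49 and 7.97 untreated, 7.73 and 6.40 at 18 hours, 7.47 and 7.25 at 6 days, and 8.56 and 7.30 at 2 weeks in KO mice. In WT mice it was 6.11 and 6.74 untreated, 6.76 and 7.78 at 18 hours, 6.52 and 6.56 at 6 days, and 6.45 and 6.61 at 2 weeks. Untreated KO arrays exceeded untreated WT arrays by 1.80 ± 0.49 (SE; limma adjusted p = 0.902), and at 18 hours the replicate 2 arrays showed the opposite order, 6.40 in KO and 7.78 in WT. Averaged over the 4 times the difference was 0.95 ± 0.24 (adjusted p = 0.250), and over the 14 arrays it was 1.25 ± 0.21 (adjusted p = 0.0215, in a range of 0.00400 to 0.587). Over the 13 arrays the untreated difference was called too (adjusted p = 0.0113, where 0.63% of all genes were called).

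Mmp11, stromelysin 3, was not called over 16 arrays. It was 5.49 and 5.37 in KO and 5.48 and 5.55 in WT mice untreated, where the groups overlapped. It was 5.03 and 5.28 in KO and 5.76 and 5.33 in WT mice at 18 hours, and 5.13 and 5.12 in KO and 5.50 and 5.42 in WT mice at 6 days. At 2 weeks it was 5.13 and 5.22 in KO and 5.42 and 5.78 in WT mice. The KO and WT arrays did not overlap at these 3 later times. At 18 hours, though, the gap lay between the replicate 2 arrays, 5.28 in KO and 5.33 in WT, which resembled the other genotype. Averaged over the times the difference was -0.31 ± 0.08 (limma adjusted p = 0.250), and over the 14 arrays it was -0.39 (adjusted p = 0.0313, in a range of 0.0313 to 0.587). Averaged over the times 0 of the 49 genes and 0% of all genes were called over 16 arrays. An unadjusted p under 0.05 was held by 13 of the 49, and the share of all genes at that threshold is not given. Over the 14 arrays 2 were called, Mmp11 and Adamts15, where 1.72% of all genes were.

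Adamtsl2, which binds fibrillin and restrains Tgf-beta signalling, was 6.80 and 6.88 in untreated KO mice and 8.06 and 7.70 in untreated WT mice, a difference of -1.04 ± 0.32 (limma adjusted p = 0.902). At 2 weeks the order was the other way, 7.03 and 7.91 in KO mice and 7.34 and 6.81 in WT mice, with overlapping arrays. Adamts10 was 7.24 and 7.24 in untreated KO mice and 7.71 and 7.82 in untreated WT mice (-0.52 ± 0.19, adjusted p = 0.918). At 18 hours 0 genes of the 49 and 0% of all genes were called between genotypes, with 1 of the 49 at an unadjusted p under 0.05, Mmp11 (-0.39 ± 0.16). Next came Mmp25 (0.18 ± 0.15) and Adamts20 (0.11 ± 0.11). At 6 days 0 of the 49 and 0.00664% of all genes were called, again with 1 of the 49 at an unadjusted p under 0.05. This was Adamts8, at 5.19 and 5.63 in KO and 6.10 and 6.18 in WT mice (-0.73 ± 0.28, adjusted p = 0.983). Mmp11 (-0.33 ± 0.16) and Adamts6 (0.29 ± 0.15) followed.

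**Figure D5:**
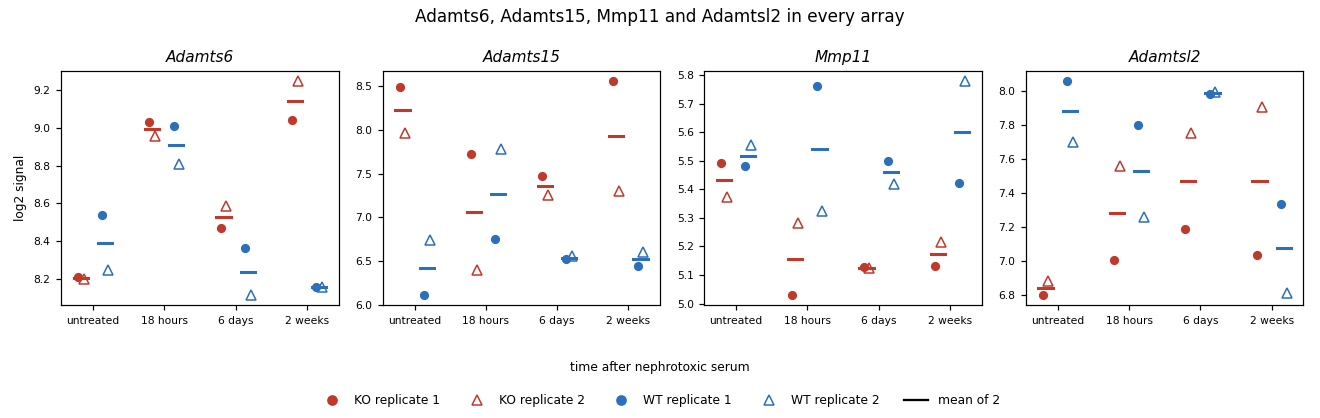
Deposited log2 values of Adamts6, Adamts15, Mmp11 and Adamtsl2 by time after serum, with KO (red) left of WT (blue) at each time; circles are replicate 1, triangles replicate 2, and bars the mean of 2 arrays. Adamts6 was high in all 4 arrays at 18 hours and in KO mice at 2 weeks (9.04 and 9.25, against 8.16 and 8.16 in WT mice), and Adamts15 was higher in untreated KO than in untreated WT mice.

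Genes that act on or with these enzymes were also called mainly in WT mice at 2 weeks, where 8.04% of all genes were called. Of 25 measured matrix substrates, 9 were called higher and 0 lower, with a median of 0.63. They included Tnc, the injury matrix protein tenascin C (3.14 ± 0.55, limma adjusted p = 0.0156), the basement membrane chain Col4a2 (1.27 ± 0.32), the fibrillar chain Col1a1 (1.24 ± 0.20) and the proteoglycan Vcan, versican (0.61 ± 0.15). Tnc was 6.14 and 7.64 in KO mice and 10.40 and 9.63 in WT mice at 2 weeks, with untreated values of 6.18 and 6.28 in KO mice and 7.35 and 6.41 in WT mice. Of 15 measured activators, receptors and binders, Cd44, a hyaluronan receptor that docks Mmp enzymes (2.53 ± 0.54), and Itgb3 (0.95 ± 0.20) were called higher and Furin, the convertase that activates Mmp14 (-0.60 ± 0.16), lower. Of 18 related zinc metalloproteases, Adam8 (0.88 ± 0.21) and Adam19 (0.61 ± 0.10) were called higher. The 4 largest differences of this list were falls that did not pass. They were Mep1b (-3.62 ± 1.07), Ace (-3.12 ± 1.04), Mep1a (-1.62 ± 0.59) and Mme (-0.96 ± 0.56), while the median of the list was 0.15. Adam19 was also lower in KO than in WT mice at 2 weeks (-0.58 ± 0.10, adjusted p = 0.0472). In KO mice at 2 weeks 0 genes of the 3 lists were called, where 0.109% of all genes were. Without WT 2 weeks replicate 2, 0 genes of these lists were called in WT mice at 2 weeks or between genotypes then.

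Markers of cell types moved in the same WT arrays, and in an extract fewer cells of a type and less RNA per cell cannot be told apart. Of 13 macrophage markers, 8 were called higher in WT mice at 2 weeks (3, Lyz2, Tyrobp and Ccr2, without replicate 2). Their mean was 6.15 and 6.52 in KO mice and 7.05 and 7.03 in WT mice at 2 weeks, with 6.25 and 6.14 in untreated KO mice and 6.28 and 6.17 in untreated WT mice. Not every macrophage marker rose in WT mice. Csf1r was 8.53 and 8.37 at 2 weeks, against 9.75 and 8.84 untreated, with no call. C1qa lay above both untreated WT arrays in replicate 1 (6.65) and below them in replicate 2 (5.97). C1qb was 6.37 and 5.64, against 5.57 and 5.74 untreated. Lyz2, Tyrobp and Ccr2 were called lower in KO than in WT mice at 2 weeks over 16 arrays. Without WT 2 weeks replicate 2, 0 of the 13 markers were. Of 8 proximal tubule markers, 5 were called lower in WT mice at 2 weeks, 1 of them (Kap) without replicate 2. Their mean was 16.38 and 14.67 in KO mice and 13.67 and 14.69 in WT mice at 2 weeks, with 16.58 and 16.68 in untreated KO mice and 16.16 and 16.66 in untreated WT mice. Tubule RNA was thus present in every extract. The tubule injury mean was 5.93 and 9.55 in KO mice and 9.89 and 9.37 in WT mice at 2 weeks, against 5.66 to 6.38 in the untreated arrays, and Havcr1 and Vcam1 of its 4 genes were called higher in WT mice (0 of 4 without WT 2 weeks replicate 2).

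The markers of glomerular cells were present in all arrays, with podocyte means of 8.93 to 11.08 over 8 markers, endothelial means of 9.07 to 11.49 over 8 and mesangial means of 7.87 to 10.30 over 4. In WT mice at 2 weeks 0 of the podocyte and 0 of the mesangial markers were called, and 1 endothelial marker, Plvap, was called lower (0 without WT 2 weeks replicate 2). Over 16 arrays the median difference in WT mice at 2 weeks was 0.69 for podocyte, 1.05 for endothelial and 1.09 for mesangial markers. Without WT 2 weeks replicate 2 these medians were 0.67, 0.52 and 0.87. Plvap thus moved against the median of its list. The mesangial mean was 7.87 and 9.50 in KO mice and 9.86 and 10.22 in WT mice at 2 weeks. The KO arrays at 2 weeks were also far apart in the podocyte mean (8.93 and 10.71) and the endothelial mean (9.07 and 10.93). KO 2 weeks replicate 1 was the lowest of the 16 arrays in all 3 means. None of the 9 neutrophil or 5 T cell markers was called in WT mice at 2 weeks, and of 5 fibroblast markers Col1a1 and Col1a2 were called higher (0 without WT 2 weeks replicate 2). The fibroblast list as a whole had a median of 0.01 (-0.20 without that array), and Dcn, decorin, was 7.68 and 7.35 in WT mice at 2 weeks, against 7.84 and 8.89 untreated, with no call. No marker reads 0 on this scale. The part of tubule, macrophage and mesangial RNA in the differences of the 49 genes was not tested.

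The other members gave no call over 16 arrays. Among Mmp genes these were Mmp16 (4.75 to 5.24), Mmp17 (4.95 to 5.90), Mmp19 (4.66 to 5.21), Mmp21 (4.14 to 4.64), Mmp24 (4.00 to 4.73), Mmp25 (3.95 to 4.66) and Mmp28 (5.65 to 6.22), each with its top value in WT 2 weeks replicate 2. Among Adamts proteases, Adamts7, Adamts13 (which cuts von Willebrand factor), Adamts17, Adamts18, Adamts19 and Adamts20 also had their top value there. Adamts14, a procollagen protease like Adamts3, spanned 5.34 to 5.55. Adamtsl1 (5.89 to 6.44), Adamtsl3 (4.85 to 5.38) and Adamtsl5 (5.70 to 6.73) completed the set.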

How the data were processed

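The authors deposited log2 values of 72688 probesets on 16 arrays, with array medians of 5.57 to 5.90. The submitters' processing notes name 2 programs, Transcriptome Analysis Console and Affymetrix Expression Console. Versions, summarisation, normalization and genome build: not given in the sources used here. Per the labels' protocols, 10 ng of RNA from a glomerular extract was amplified with the WT Pico kit.

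Probesets with 1 gene symbol in the platform annotation (30604) were kept, and those with several (2146) or none (39938) were left out. Symbols of 827 were updated through the Entrez identifier. For 355 genes with more than 1 probeset the one with the highest mean was taken. No filter on dim genes was used, and every column of values was used.

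Limma 3.58.1 (R 4.3.3) was fitted with 8 group means over all 16 arrays (8 residual degrees of freedom, prior 3.03, intensity trend). The 14 contrasts were each time against untreated within a genotype, KO against WT at each time and averaged, and the differences of responses. Adjustment was by Benjamini-Hochberg over 30142 genes within a contrast. The procedure was tested on simulated data. Alternatives were quantile normalization, leaving out genes under the median level, probeset means, no intensity trend, only the groups compared, a replicate block, array weights and leaving out each array. The sets of 14 and 13 arrays were chosen after seeing the data.

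Genes with values in every array are the 4 Timp genes and those called in any contrast, the 12 largest differences where more were called. Where none was called, the 3 smallest p-values are named. Others are given by range. Genes beyond this rule, such as Mmp14, Mmp23, Adamts5, Adamts9 and Adamts12, were chosen after their values were seen. The members, gene lists and marker lists were chosen with earlier results of these data known. Same-numbered replicates did not deviate together (correlations of deviations -0.679 to 0.593 over 28 pairs of groups, 13 below 0), so the numbers were not taken to pair mice. Array number, 2 per group, limits the precision. Promoter windows are from RefSeq.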

Additional observations from a re-analysis of the deposited data

Results flagged for a closer look

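Some genes had KO arrays that all moved the opposite way from the WT arrays after serum. In each case below the KO minus WT difference of the responses was tested in limma and did not pass, and no explanation was weighed. At 18 hours 4 of the 49 genes did so, as did 7.86% of all genes. They were Adamts15 (-2.01, from -1.16 in KO and 0.85 in WT), Timp4 (-0.16), Adamtsl4 (0.14) and Adamts13 (0.10), with an adjusted p of 1 for each, at a time when replicate 2 of each genotype resembled the other. At 6 days 2 of the 49 did so, against 3.07% of all genes. These were Adamts10 (0.26, from 0.10 in KO and -0.17 in WT) and Mmp20 (-0.26, from -0.05 in KO and 0.21 in WT), both with an adjusted p of 1. At 2 weeks 2 of the 49 did so, against 2.79% of all genes. Adamts6 differed by 1.17 (0.94 in KO and -0.24 in WT, adjusted p = 0.431) and Adamtsl2 by 1.44 (0.63 in KO and -0.81 in WT, adjusted p = 0.639).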

How the results depend on the processing

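With 2 mice per group, the counts of calls moved with the processing. Most alternatives leave the group means as they are and act on the p-values alone. Quantile normalization and leaving out an array of the groups compared can move a difference. For WT at 2 weeks the 13 calls became 7 with quantile normalization, 6 without genes under the median level, 6 with only the groups compared, 3 with array weights and 4 over the 14 arrays, and leaving out 1 array gave 0 to 23. For KO at 2 weeks the 1 call became 0 with quantile normalization, only the groups compared, the replicate block, array weights or the 14 arrays, and 6 over the 13 arrays, with 0 to 8 when leaving out 1 array. For KO minus WT at 2 weeks the 1 call became 0 with only the groups compared, array weights, the 14 or the 13 arrays, with 0 to 19 when leaving out 1 array. The 0 calls for KO at 6 days became 3 with array weights and 1 over the 13 arrays (0 to 2 when leaving out 1 array), those for untreated KO minus WT became 1 over the 13 arrays, and those for the average became 2 over the 14 and 2 over the 13 arrays (0 to 11). The difference of responses at 2 weeks gave 0 to 10 when leaving out 1 array, the high counts being without WT 2 weeks replicate 1 (10) and KO 2 weeks replicate 2 (6). The other counts stayed at 0 in the alternatives run. No difference picked by the naming rule turned its sign under an alternative, though that of Mmp10 in KO minus WT at 2 weeks, -0.49, did so over the 13 arrays (0.18). Most alternatives could not turn a sign, since they do not change the group means. The replicate block gave 12 calls for WT at 2 weeks and 1 for KO minus WT at 2 weeks, and its numbers are not known to pair mice. The causes of these changes were not tested. The tied values of WT 2 weeks replicate 2 limit what dim genes can show, and 8 of the 49 shared a value there with another of the 49.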
